A study of Gallus gallus with 26 samples.

Results

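In the complexus muscle of broiler chickens (Gallus gallus), 131 of the 8758 genes of the deposited table rose to a peak at embryonic day 19 (E19) and fell again by E21. They were chosen on their day means of normalized counts, which are read counts divided by one size factor per library. The E19 mean had to be the highest of the 5 days and at least 20, and at least 2 times the means of E15 and of E21, with 0.5 added to each mean before a ratio was formed. In all, 1486 genes had their highest day mean at E19, and the rule kept 131 of them. Because these means chose the genes, every value of E19 against another day is given below as a description without a test. The differences between E20 and E17, and between E21 and E15, have a sign that the rule does not set, and these were tested.

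The 26 libraries were made from total RNA of frozen complexus muscle by MARS-Seq, a tag-counting form of RNA sequencing, as the series description names it. E15 and E17 had 6 libraries each, E19 and E20 had 5 each, and E21 had 4. No treatment, sex or line beyond broiler is given for any group, and age is the only difference that the labels state. The labels call the last groups embryonic days 20 and 21, but hatch and chick placement are the terms of the series description. Whether each library is from a different bird is not in the labels, and the p-values reflect a spread between libraries that may be technical. Replicate numbers are those of the labels, which run to 6 with gaps.

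The complexus is the hatching muscle of the neck, with which the chick lifts its beak against the shell. It is known for enlarging before hatching and for shrinking once the chick is out. In skeletal muscle a small number of transcripts, mainly of contractile and energy-supplying proteins, usually takes up a large share of the messenger RNA. The deposited table gives Ensembl identifiers without names. In the RefSeq gene table that was searched, 0 of all 8758 identifiers could be paired with a name, those of the 131 genes included. The genes are therefore described by level, course and spread, and only 4 are given by identifier. For the same reason neither markers of muscle nor those of blood, fat, vessel or nerve cells were examined, and their part in these values was not tested. In whole tissue, more cells of a type and more RNA per cell cannot be told apart.

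Library totals ran from 580768 to 2208872 counts, with 7329 to 8593 genes counted per library. The shallowest library was E19 replicate 5. At E19 a library held 813314 counts in replicate 6, 941808 in replicate 1, 1085756 in replicate 3 and 1106816 in replicate 2. The E19 libraries were thus shallower on average than those of E15, E17 and E21.

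The 131 genes moved up and down by several-fold in the middle of their range. Their E19 mean was a median of 2.85 times the E15 mean, with quartiles of 2.36 and 3.99, and a median of 3.60 times the E21 mean, with quartiles of 2.55 and 5.30. Against the neighbouring days the medians were 1.87 over E17 and 1.85 over E20. At least 4 times the E15 mean was reached by 33 genes, at least 4 times the E21 mean by 55, and both by 19. The widest ranges were 77.3 times over E15 and 62.6 times over E21. Day means of 120 genes rose at both steps up to E19 and fell at both steps after it, while 9 had a lower mean at E17 than at E15 and 3 had a lower mean at E20 than at E21.

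The limits of the rule lay within the run of the data. Just inside stood a gene with day means of 41.7, 57.9, 84.3, 44.6 and 29.7 normalized counts from E15 to E21, which was 2.01 times its E15 mean at E19. The next gene inside had 100.5, 97.7, 203, 89.3 and 74.4. Just outside stood a gene with 96.4, 153.9, 192.3, 87.7 and 36.8, at 1.99 times its E15 mean, and one with 49.2, 106.4, 147.1, 115 and 73.7, at 1.99 times its E21 mean. The ratio over E15 was the closest limit for 77 of the 131 genes, the ratio over E21 for 44 and the minimum level for 10.

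In each library the level of every gene was set on a log2 scale against its mean over the 5 days, and the median over the 131 genes was taken. At E15 this median lay between -0.49 and -0.44 in the 6 libraries, and at E17 between -0.05 and 0.25. The E19 libraries stood at 1.16 in replicate 1, 1.12 in replicate 2, 0.93 in replicate 3, 1.04 in replicate 5 and 0.97 in replicate 6. All 5 lay above every library of the other days, which the choice of the genes favours. The 5 E20 libraries lay between -0.05 and 0.38, overlapping those of E17, and the 4 E21 libraries between -0.85 and -0.60. The 6 E15 libraries all lay above the 4 E21 libraries.

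**Figure D1:**
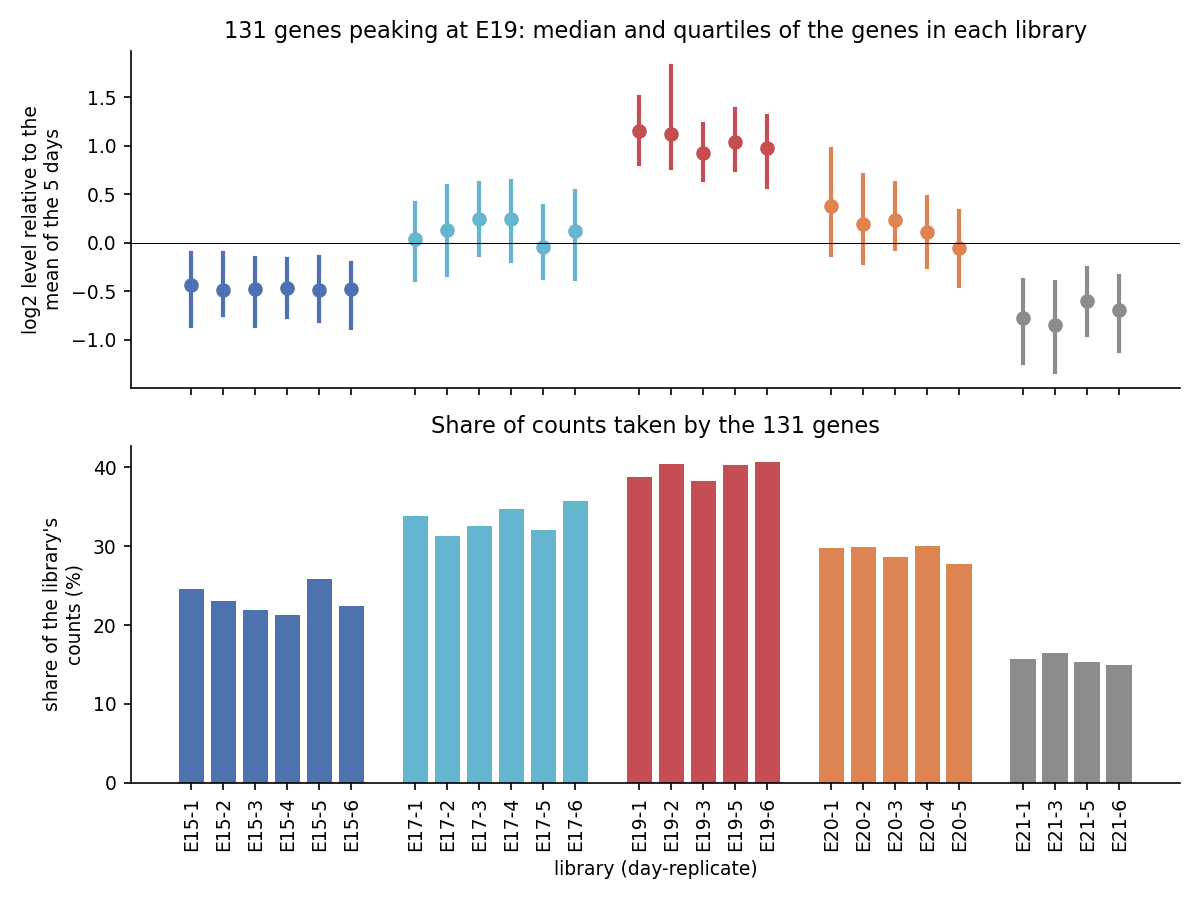
Upper plot: log2 level of the 131 genes relative to the mean of their 5 day means, with the median (point) and the quartiles (line) over genes in each library. Lower plot: percent of each library's counts that fell on the 131 genes. The E19 medians lie between 0.93 and 1.16, and the E19 shares between 38.3% and 40.7%.

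Part of the 131 genes were among the most abundant transcripts of the muscle. On E15 they took 23.2% ± 1.73 (SD, n = 6) of all counts together. This share rose to 33.4% ± 1.66 (SD, n = 6) on E17 and 39.7% ± 1.11 (SD, n = 5) on E19. It came back to 29.2% ± 1.02 (SD, n = 5) on E20 and ended on E21 with 15.6% ± 0.613 (SD, n = 4). The E19 libraries held 38.8%, 40.4%, 38.3%, 40.4% and 40.7% in order of replicate, all above the highest E17 library at 35.7%. The 5 genes with the highest E19 means in the whole table were all among the 131, and without them the others took 7.38% ± 0.303 (SD, n = 6) on E15, 14.7% ± 0.749 (SD, n = 5) on E19 and 6.86% ± 0.157 (SD, n = 4) on E21. At the other end, 52 genes had an E19 mean below 100 normalized counts and 56 lay between 100 and 1000, with 23 at 1000 or more.

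The most abundant transcript rose from an E15 level of 75648 ± 9974 (SD, n = 6) normalized counts to 159870 ± 12491 (SD, n = 5) on E19 and ended with 28616 ± 2214 (SD, n = 4) on E21. Its share of the counts also had its highest mean at E19, with a smaller rise. It ran from 6.99% to 9.16% at E15, from 9.47% to 12% at E17, from 10.3% to 12.1% at E19, from 8.71% to 9.8% at E20 and from 3.1% to 3.78% at E21. As a share of counts, E17 and E19 overlapped for this gene. The second most abundant gene fell further, from a mean of 49731 on E19 to a mean of 3990 on E21, which was 12.5 times lower, and its E19 SD was 13224 (n = 5). The fifth stood at 16693 ± 1225 (SD, n = 6) on E15, 43550 ± 2292 (SD, n = 5) on E19 and 16173 ± 2493 (SD, n = 4) on E21.

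How many genes met the rule depended on the scaling. The deposited size factors gave normalized totals per library of 1374362 ± 56677 (SD, n = 5) on E19 against 964814 ± 28042 (SD, n = 6) on E15 and 828271 ± 33005 (SD, n = 4) on E21. With counts divided by library totals instead, 36 genes met the rule, all 36 of them among the 131. Of the 131, 109 still had their highest mean at E19 on that scale, 20 at E20 and 2 at E17, and 67 reached 2 times the E15 mean and 71 2 times the E21 mean. TMM factors, another scaling against the bulk of the genes, gave 125 genes, and all 125 were among the 131. The median log2 fold change of the 131 genes from E15 to E19 was 1.5 with TMM factors against 1.01 with library totals, and that from E19 to E21 was -1.87 against -1.16. Over all 5901 genes tested these medians moved from -0.09 to -0.58 and from 0.01 to 0.72. The change of scale moves all genes by about the same amount, so it leaves their distances to each other as they were.

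Library totals lower the E19 ratios of all genes alike, so the 36 genes that met the rule on both scales had to have larger deposited ratios, and the values that follow describe that choice. Their lowest ratios were 2.84 over E15 and 3.34 over E21, against 2.01 and 2.02 for the other 95. Their E19 means were a median of 3.91 times the E15 mean and 5.30 times the E21 mean, against 2.52 and 2.76. Of the 36, 23 rose late, as defined below, compared with 32 of the 95. Their median E19 level of 138.8 normalized counts was near the 146.3 of the others, and 6 of them were among the 23 genes at 1000 or more. The E19 libraries of many of the 36 spread widely. The E19 SD was over 50% of the E19 mean in 20 of the 36, compared with 14 of the 95.

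Courses were set apart by the neighbouring days. A rise was called early where the E17 mean, with 0.5 added, was at least 50% of the E19 mean, and late otherwise. A fall was called late where E20 held at least 50%, and early otherwise. The time from E17 to E19 is longer than that from E19 to E20, so rise and fall were not judged over equal times. A single high E19 library also raises the E19 mean. Of the 34 genes with an E19 SD over 50% of the mean, 29 rose late, compared with 26 of the 97 others. The part of this spread in the courses was not tested. Early rise with late fall was the course of 45 genes (34.4%), which stood at medians of 40.4%, 61.1%, 65.4% and 37% of their E19 mean on E15, E17, E20 and E21. Late rise with late fall was that of 35 genes (26.7%), with medians of 25.3%, 35.7%, 68.4% and 31.6% on the same days. In 31 genes (23.7%) an early rise met an early fall, at 38%, 64.8%, 36.2% and 21.5%. The remaining 20 genes (15.3%) rose late and fell early, at 25%, 35.3%, 42.1% and 20.6%, so that only E19 was above 50%. With library totals, 94 of the 131 genes rather than 76 had an early rise, and 105 rather than 80 had a late fall, a comparison chosen after seeing the data.

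**Figure D2:**
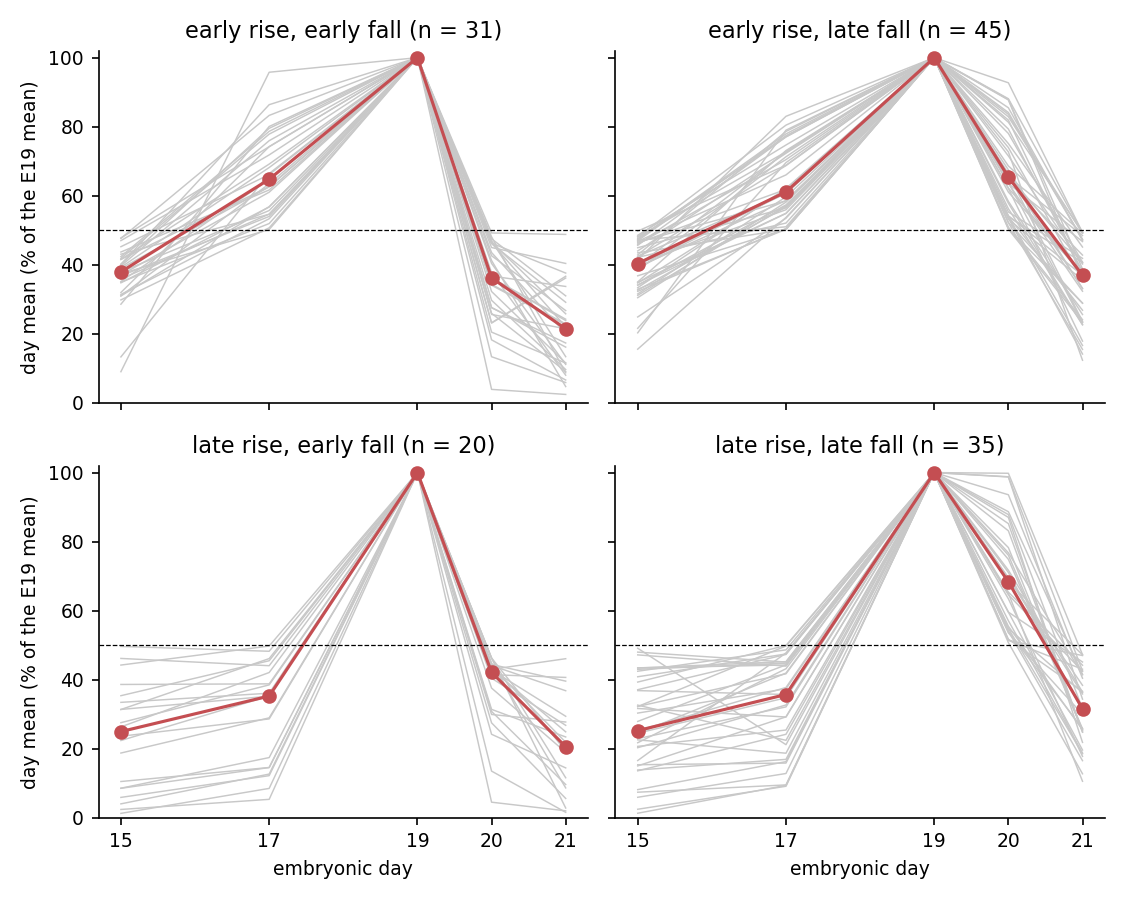
Day means in percent of the E19 mean (y axis) by embryonic day (x axis) for the 4 courses. Grey lines are single genes, the red line is their median, and the dashed line marks the 50% that separates early from late. The medians at E20 are 36.2% and 42.1% with an early fall, and 65.4% and 68.4% with a late one.

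The courses were counted by level at E19, which the rule also used. Of the 23 genes with an E19 mean of 1000 or more, 22 rose early and 18 fell late, and their median ratio of E19 over E17 was 1.42. Among the 52 genes below 100, 25 rose early and 29 fell late, with a median ratio over E17 of 2.05. The 56 genes between these levels had 29 early rises and 33 late falls, and a median ratio of 1.99. These counts describe the chosen genes and were not tested.

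The authors' deposited table had placed 98 of the 131 genes into only 2 of its 5 clusters attributed to DESeq2. Cluster 2 held 50 of them, which was 29.1% of that cluster and 38.2% of the 131, and cluster 4 held 48, which was 29.4% of the cluster and 36.6% of the 131. The other 33 were in no cluster. Early rise with early fall made up 26 of the 50 genes in cluster 2, whereas late rise with late fall made up 29 of the 48 in cluster 4. Of the clusters attributed to maSigPro in the deposited table, cluster 5 had 24 genes and 21 of these (87.5%) were among the 131. They were 16% of the 131. A further 9 were in cluster 3 and 6 in cluster 4, and 95 (72.5%) were in no maSigPro cluster. All these clusters were made from the same libraries and are no independent evidence of a peak.

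By the log2 fold changes and adjusted p-values of the authors' deposited table, 19 of the 131 genes were called higher at E17 than at E15 (0.651% of all genes). At E19, 52 were called higher than at E17 (1.68% of all genes). Called lower were 40 at E20 than at E19 (2.11% of all genes) and 45 at E21 than at E20 (1.98% of all genes). None was called in the opposite direction in these 4 comparisons. Such calls were formed here from the deposited values. They needed an adjusted p of at most 0.05, an absolute log2 fold change of at least 1 and a highest count of at least 30. The rule used the same day means, so nothing is read from these counts beyond how many genes crossed the thresholds at each step.

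Separation between single libraries was less complete than the day means. All E19 libraries lay above all E15 libraries in 104 genes (15.8% of the genes with a mean of at least 20 on either day) and above all E21 libraries in 112 (19.2%). Against the neighbouring days, this held for 57 genes over E17 (7.53%) and 51 over E20 (10.4%). The E19 libraries lay above every other library in 27 genes (1.34% of the genes with a mean of at least 20 on any day). In the remaining 104 genes at least 1 library of another day reached into the range of E19. The rule used these contrasts, and the shares are given as a description.

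**Figure D3:**
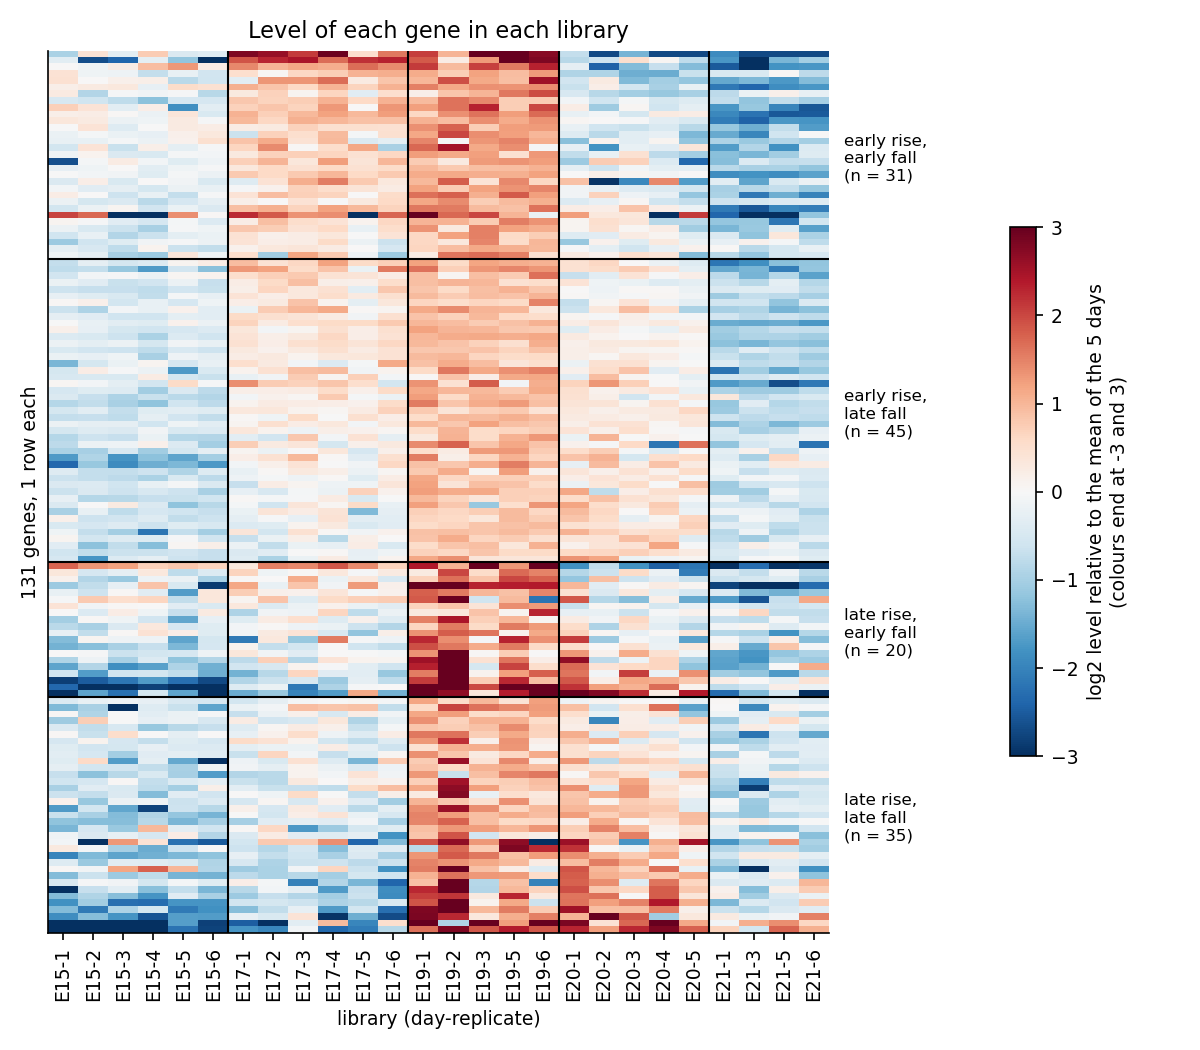
Each row is 1 of the 131 genes and each column 1 of the 26 libraries, ordered by day and replicate. Colour gives the log2 level relative to the mean of the 5 day means, and rows are grouped by course with 31, 45, 20 and 35 genes. The late-rising groups hold rows in which E19 replicate 2 is far darker than the other E19 libraries.

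Spread between the E19 libraries was wide for part of the genes. The coefficient of variation, the SD as a percent of the mean, had a median of 29.2% over the 131 genes at E19, against 23.1% over all 3391 genes with an E19 mean of at least 20. It was over 50% in 34 of the 131 genes and in 5.54% of all those genes. The E19 mean chose the genes, so these shares are set side by side without a test. At E17, 101 of the 131 genes had a mean of at least 20 and 5 of these were over 50%, against 1% of all genes at that level. At E20 it was 18 of 111, against 3.39%. In 60 genes the E19 libraries stayed within 2-fold of each other, in 42 the highest was at least 3 times the lowest, and in 11 a single library held over 50% of the sum.

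Of the 34 widely spread genes, 21 had their highest E19 value in replicate 2, 5 in replicate 5, 4 in replicate 1, 3 in replicate 6 and 1 in replicate 3. In the 21 genes, replicate 2 stood at a median of 4.89 times the median of the other 4 E19 libraries, and 20 of the 21 rose late. Over the 5 E19 libraries the 210 pairs of these 21 genes had a median correlation of 0.88 on the log2 scale, as a description of genes that were picked for the same library. At E20, 13 of the 21 genes were highest in replicate 1. The 97 other genes were spread more evenly, with 24, 23, 20, 19 and 11 highest in replicates 6, 2, 5, 1 and 3 at E19. At E20, 29, 25, 21, 11 and 11 of these 97 were highest in replicates 1, 2, 3, 4 and 5. Replicate 1 was thus the most frequent there as well. Without E19 replicate 2, 112 of the 131 genes still met the rule, which was the fewest for any single library. With 1106816 counts it was the deepest E19 library, and the part of depth in its high values was not tested.

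The sampled days on either side of the peak were compared as E20 against E17. The time from E17 to E19 is longer than that from E19 to E20, so equal levels would not mean an equal pace of rise and fall. The genes split both ways: 34 were higher at E20 (26%, against 22.8% of all 5901 genes tested) and 30 were lower (22.9%, against 21.3%), in edgeR's quasi-likelihood test with an adjusted p under 0.05 over all genes. All 131 genes had passed the filter on low counts, which their E19 level alone could achieve. With only the libraries of E17 and E20 fitted, 128 of them passed it, and 38 were higher and 27 lower. Shares over all genes were not computed for that fit, and nothing is read from its counts. In the fit of all days, 20 of the higher genes differed 2-fold or more (11.2% of all genes did), and 12 of the lower (9.27%). In 15 of the 131 genes the E20 libraries lay entirely above those of E17 (16.7% of the genes with a mean of at least 20), and in another 15 entirely below (15.3%). These counts cover all 131 genes, of which 101 had a mean of at least 20 at E17 and 111 at E20. The share of calls was close to that over all genes in both directions. The median log2 fold change was 0.10, against 0.01 over all genes, with quartiles of -0.44 and 0.69 and extremes of -4.75 and 3.47. For the 67 genes that did not pass, the 95% interval reached a median of 0.53 to either side on the log2 scale, and a missed threshold does not show equal levels.

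Where the genes ended was compared with where they began, at E21 against E15. Lower at E21 were 39 genes (29.8%, against 28.6% of all genes tested) and higher were 18 (13.7%, against 27.3%), in edgeR with Benjamini-Hochberg adjustment. In the fit of all days, the share of lower genes was near that over all genes, and the share of higher genes was smaller. The rule left out genes that stayed near their E19 level at E21, and equally those already near it at E15. The part of the rule in either share was not tested. A 2-fold or larger difference was seen in 23 of the lower (17.6% of all genes) and 11 of the higher genes (13.7% of all genes). The median log2 fold change was -0.21, with quartiles of -0.68 and 0.22, against -0.03 over all genes. In 25 genes all E21 libraries lay below all E15 libraries (24.6% of genes with a mean of at least 20), and in 10 they lay above (27.2%). These counts again cover all of the genes chosen by the rule, of which 80 had a mean of at least 20 at E15 and 85 at E21. The 74 genes that did not pass had 95% intervals of a median of 0.57 to either side. With only the libraries of E15 and E21 fitted, 120 of the genes chosen by the rule passed the filter on low counts. Of them, 22 were higher and 35 lower. The others were tested in this comparison only through the fit of all days. Shares over all genes were not computed for the fit of E15 and E21 alone, and nothing is read from its counts.

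Library totals as the scale moved the second comparison more than the first. With them 40 of the 131 genes were higher and 26 lower at E20 than at E17, against 26.3% and 17.9% of all genes. At E21 against E15, 30 genes were higher and 30 lower, against 35.6% and 22.2% of all genes, and the median of the 131 was 0.01 where that of all genes was 0.18. The median of all genes thus shifted by 0.22 in E21 against E15 and by 0.09 in E20 against E17.

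The comparisons, which share no library, had the same sign in 96 of the 131 genes (73.3%), against 78.7% of all genes tested. Of the 131 genes, 35 were called in both. Lower in both were 22 (16.8%, against 16.3% of all genes), and higher in both were 12 (9.16%, against 17.2%). Higher at E20 than at E17 but lower at E21 than at E15 was 1 gene, and 0 were lower at E20 and higher at E21, against 0.458% and 0.322% of all genes. A further 29 were called only in E20 against E17. Of these, 21 were higher (16% of the 131, against 5.08% of all genes) and 8 lower (6.11%, against 4.71%). Called only in E21 against E15 were 22, with 6 higher (4.58%, against 9.78% of all genes) and 16 lower (12.2%, against 11.9%). In neither comparison were 45 called (34.4%, against 34.2%). The log2 fold changes had a Pearson correlation of 0.71 across the 131 genes and of 0.79 across all 5901 genes tested. Genes are not independent points. The rule kept the E19 mean at 2 times the E15 and E21 means or more. The E17 and E20 means only had to stay below the E19 mean. Genes that rose and stayed high to E21 were thus left out of the 131, but not out of all genes. The same held for genes already near their E19 level at E15. The part of this choice in the differing shares and correlations was not tested, and nothing is read from them.

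**Figure D4:**
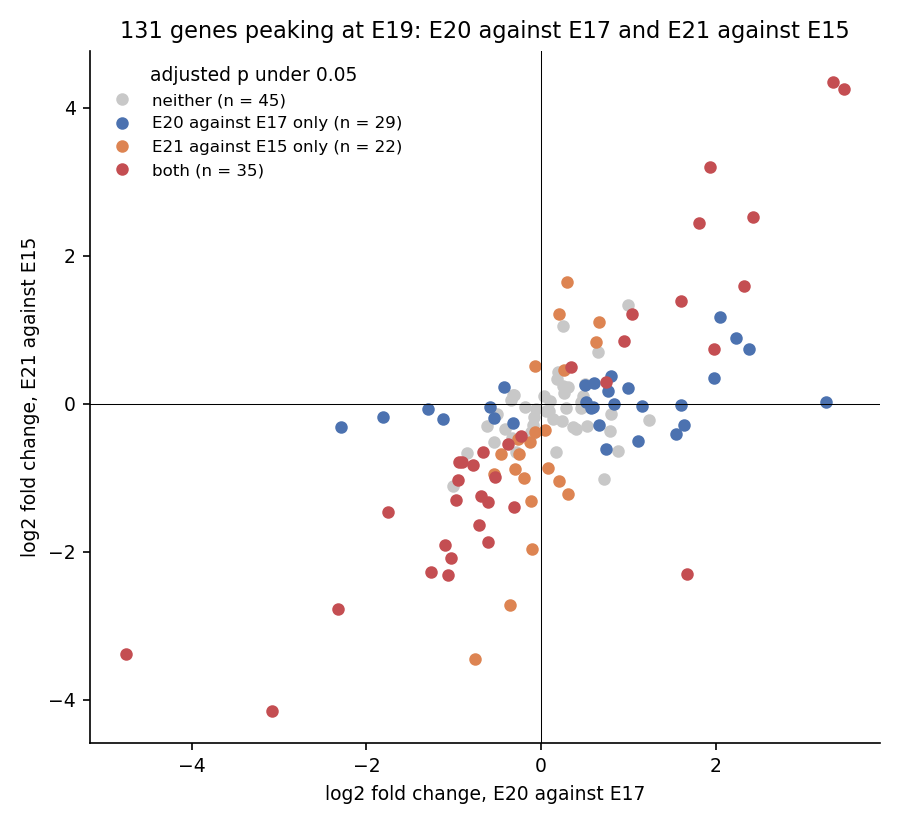
Log2 fold changes of the 131 genes for E20 against E17 (x axis) and for E21 against E15 (y axis), coloured by the comparison in which the adjusted p was under 0.05 in edgeR. The 35 genes called in both lie mainly in the lower left and upper right, and 1 lies in the lower right.

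Among the 23 most abundant of these genes, with an E19 mean of at least 1000, 9 were lower and 4 higher at E20 than at E17, and 12 were lower and 3 higher at E21 than at E15 in edgeR. The 163 other genes of the table at that level had 85 lower and 36 higher, and 87 lower and 54 higher, in the same comparisons. The most abundant gene fell by 0.31 on the log2 scale between E17 and E20 (SE 0.09, adjusted p = 0.00636, edgeR) and by 1.40 between E15 and E21 (SE 0.10, adjusted p = 5.67e-13, edgeR). The second fell by 1.06 (SE 0.17, adjusted p = 4.59e-06, edgeR) and by 2.32 (SE 0.19, adjusted p = 8.33e-12, edgeR). For the fifth, E21 against E15 gave -0.04 (SE 0.09, adjusted p = 0.7, edgeR), with E21 back near the E15 level on the scale of TMM factors. As a share of counts this gene took 1.62% to 1.86% at E15. At E21 it took 1.78%, 2.38%, 1.85% and 1.79% in order of replicate.

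ENSGALG00000024272.3 had the sharpest peak by the ratio of E19 to the higher of E15 and E21, at 35.2. It had 0 to 2.54 normalized counts at E15 with a median of 0.705, and 0.62 to 9.24 at E17 with a median of 1.11. The E19 libraries read 182, 27.2, 5.1, 22.1 and 33.65 in order of replicate, the E20 libraries 46.9, 29.9, 19.9, 4.7 and 22.3, and the E21 libraries 0.39, 1.25, 2.56 and 0. Replicate 1 stood far above the other E19 libraries, and without it the E19 mean dropped from 54 ± 72.4 (SD, n = 5) to 22, below the E20 mean of 24.7 ± 15.4 (SD, n = 5), and the ratio from 35.2 to 14.5. Its E20 level was higher than at E17, by 3.26 on the log2 scale (SE 0.75, adjusted p = 0.000718, edgeR), although E17 replicate 5 and E20 replicate 4 overlapped. With E17 and E20 fitted alone, or E15 and E21 alone, it failed the filter on low counts, so it was tested only in the fit of all days. E15 and E21 rested on 7 and 5 counts in all, and their difference had a 95% interval from -3.53 to 3.58 on the log2 scale.

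ENSGALG00000041043.2 had the next sharpest peak, at 11.7 times the higher of E15 and E21. Its values ran from 7.79 to 16.6 normalized counts at E15 with a median of 9.8, and from 9.96 to 31 at E17 with a median of 19.9. At E19 they were 111, 465, 25.5, 57.5 and 21.2 in order of replicate, and at E20 they were 119, 10.5, 16.8, 29.1 and 9.57, with 5.82, 5, 9.4 and 8.48 at E21. A single library stood out on each of the middle days, replicate 2 at E19 and replicate 1 at E20, and 2 E19 libraries lay within the range of E17. Without E19 replicate 2 the E19 mean was 53.8 rather than 136 ± 188 (SD, n = 5), still 4.65 times the higher of E15 and E21. The log2 difference of E20 from E17 was 0.87 (SE 0.63, adjusted p = 0.269, edgeR), which did not pass and turned to -0.14 without E20 replicate 1.

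ENSGALG00000007539.5 showed the largest rise in E20 against E17 among genes whose libraries did not overlap. From 1.27 to 10.7 normalized counts at E15 (median 5.66) and 9.8 to 48.5 at E17 (median 13.9), it reached 164, 365, 190, 272 and 189 in the E19 libraries. At E20 it held 255, 121, 249, 363 and 179, and at E21 82.3, 35, 175 and 109. E19 and E20 overlapped fully, with means of 236 ± 82.9 and 233 ± 90.9 (SD, n = 5 each), and the E19 and E20 levels could not be told apart. Without E19 replicate 2 the E19 mean of 204 was below that of E20. On the log2 scale the change was 3.47 for E20 against E17 (SE 0.37, adjusted p = 4.09e-09, edgeR) and 4.26 for E21 against E15 (SE 0.46, adjusted p = 3.77e-09, edgeR).

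ENSGALG00000033535.1 showed the largest fall in E20 against E17 among genes whose libraries did not overlap, and was nearly lost after E19. It had 1.21 to 5.08 normalized counts at E15 (median 2.16) and 4.2 to 24.9 at E17 (median 16.7). The E19 libraries read 13.3, 6.17, 40.8, 37.6 and 21.2, and overlapped those of E17. At E20 only replicates 1 and 3 held a count, at 1.51 and 0.76, and at E21 only replicate 1, at 0.39. From 122 counts at E17 to 2 at E20 the ratio of rates was 33.7, and its exact 95% Poisson interval of 9.13 to 281 covers only the error of counting. In edgeR the fitted log2 change was -4.75 (SE 0.74, adjusted p = 4.1e-06). From 23 counts at E15 to 1 at E21 the ratio was 16.5 with an interval of 2.68 to 679 (adjusted p = 0.0055 in edgeR). With E17 and E20 fitted alone, or E15 and E21 alone, this gene failed the filter on low counts. Both of its edgeR tests were therefore possible only in the fit of all days.

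**Figure D5:**
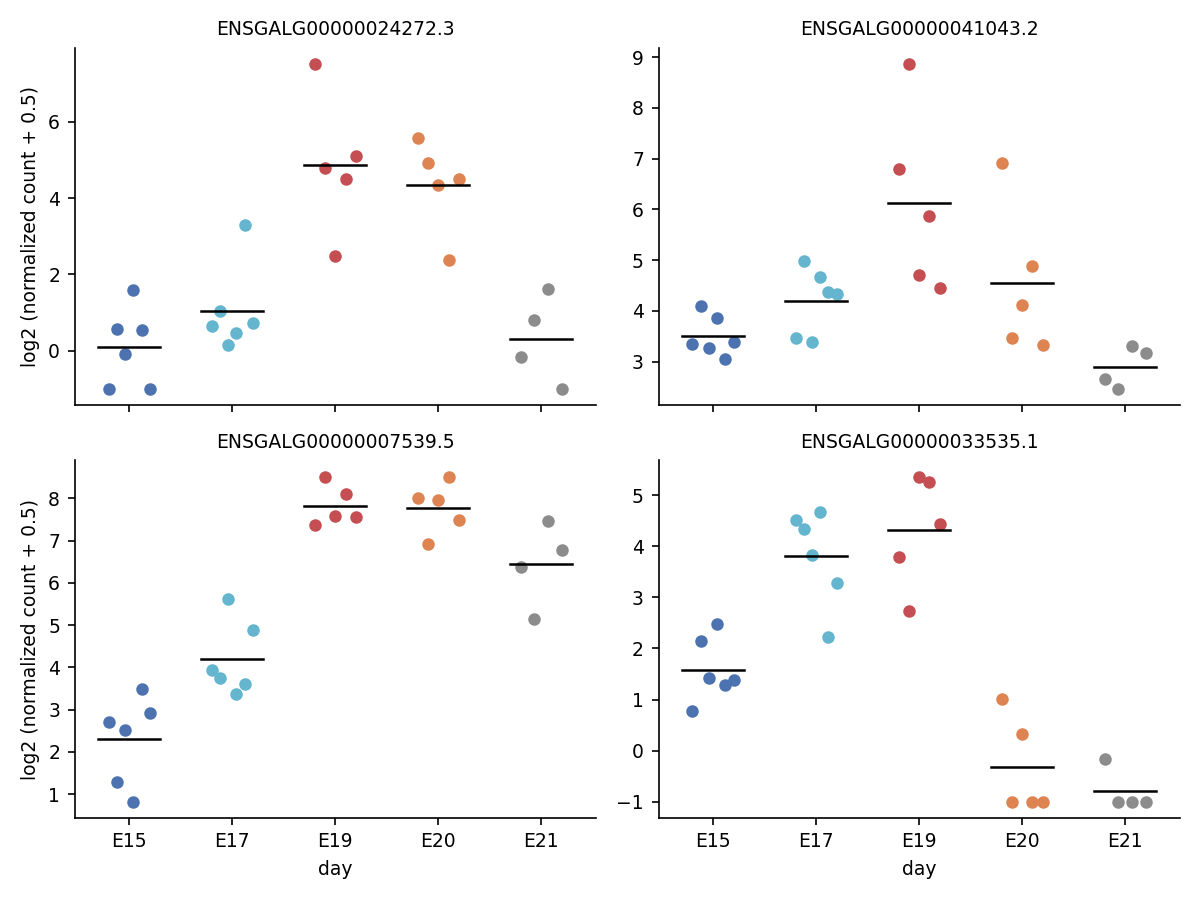
Log2 of the normalized count plus 0.5 (y axis) in each library by day (x axis) for the 4 genes given by identifier. Points are libraries and the line is the mean of the log2 values. ENSGALG00000007539.5 stays high at E20, whereas ENSGALG00000033535.1 has a count in only 2 of the 5 E20 libraries.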

How the data were processed

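Reads were aligned, counted and tested by the submitters with tools their processing notes list as STAR 2.7.10a, HTSeq 2.0.2 and DESeq2. Not given in the sources used here were their settings, the build, the annotation, the handling of strand and whether molecules or reads were counted, so values of near-identical or overlapping genes are uncertain. What the authors deposited are whole-number raw counts for each gene in each library. The authors' normalized signal beside them equalled the count over a size factor (largest relative difference 0.00039), and was used to choose the genes and for all levels. Log2 fold changes, adjusted p-values and cluster numbers of the authors' deposited table were only counted. The 131 genes, the courses and the lists were chosen with earlier results of these data known.

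Counts were tested in R 4.3.3 with edgeR 4.0.16 (quasi-likelihood), with TMM factors, filterByExpr by day (minimum count 10, minimum total 15) and 1 fit of all 26 libraries with day as the only term. The filter kept 5901 genes with 99.23% of the counts. Adjustment was by Benjamini-Hochberg over these genes. The SE is the log2 fold change divided by the square root of the F statistic, and 95% intervals use it with 21 degrees of freedom. The procedure was tested on simulated data with the same spread for every gene. These data imitated neither the shift of scale between days nor the wide spread of some genes at E19. Nothing about error rates in these libraries is read from that check. Within days, 56 pairs of libraries differed by a chi-square of 2.76 to 11.5 per degree of freedom, and each library counts as 1 sample. DESeq2 1.42.0 was an alternative. Identifiers given in the text are, by rule, the 2 with the largest ratio of E19 over the higher of E15 and E21, and the largest called rise and fall in E20 against E17 without overlap. Lists that need gene names were not analysed here.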

Additional observations from a re-analysis of the deposited data

Results flagged for a closer look

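Of 30 sets of libraries checked for a value standing apart within a day, 6 had one. The limit used is one that chance passes in about 1 set in 20 where values are normally distributed. Low counts need not be, and these genes were chosen on values of the same libraries. A single high E19 library raises the ratio by which ENSGALG00000024272.3 and ENSGALG00000041043.2 were picked, so no excess is read from the 6. For ENSGALG00000024272.3 these were E17 replicate 5 at 9.24 normalized counts and E19 replicate 1 at 182.17. For ENSGALG00000041043.2 they were E19 replicate 2 at 465.41 and E20 replicate 1 at 119.42. For ENSGALG00000033535.1 the only E21 library with a count, replicate 1 at 0.39, stood apart, as any lone count would. The median relative log2 level of the 131 genes in E15 replicate 1, at -0.436, lay above the other E15 libraries, which ranged down to -0.49.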

How the results depend on the processing

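The number of genes that met the rule was 36 with library totals, 299 with a ratio of 1.5, 42 with a ratio of 3 and 245 with no minimum level, and between 123 and 140 when 1 library was left out. For E21 against E15, library totals gave 30 higher genes and a median log2 fold change of 0.01, against 18 and -0.21. Over all genes tested, the share of higher genes was 35.6% with library totals, against 27.3%. Their median was 0.18, against -0.03. The median of the 131 differed from that of all genes by -0.18 on both scales. Among the 36 genes by library totals, 10 were higher and 7 lower at E20 than at E17 with a median of 0.21, and 4 were higher and 11 lower at E21 than at E15 with a median of -0.37. In the TMM fit that gave these counts, 22.8% of all genes tested were higher and 21.3% lower at E20 than at E17. For E21 against E15 the shares were 27.3% and 28.6%. The counts of the 36 are of fewer genes, and the cause of the moved medians was not tested. Leaving out single libraries gave 29 to 36 higher and 27 to 33 lower genes for E20 against E17, with medians from 0.04 to 0.12, and 13 to 21 higher and 33 to 40 lower for E21 against E15, with medians from -0.29 to -0.16. Of all recomputed counts and medians, these included, 131 stayed within 1.5 times or within the spread between libraries, and 11 moved further. In 1 case the sign changed, for the median of E21 against E15 with library totals, where that of all genes changed sign too. That 131 of them stayed is unrelated to the number of genes. Same-numbered libraries did not deviate together, with correlations from -0.10 to 0.06 over 9 pairs. With the replicate number as a block, 35 genes were higher and 29 lower at E20 than at E17. With this block, 19 were higher and 39 lower at E21 than at E15. Shares over all genes were not computed for the block or without single libraries. Nothing about the 131 genes against all genes is read from those counts. ENSGALG00000024272.3, at 0.03 in E21 against E15, turned to -0.79 with the replicate block and lay between -0.83 and 0.78 without single libraries, where the few counts of both days limit it. ENSGALG00000041043.2 in E20 against E17 lay between -0.14 and 1.11 without single libraries.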
